A study of Mus musculus with 24 samples.

Results

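The Q50 knock-in line of mouse embryonic stem cells was set against control embryonic stem cells, using all 3 arrays titled Q50 line and all 6 arrays titled control of a series of 24 arrays. Of 45037 probe sets on the array, 17980 had a log2 value of at least 5 on at least 3 of the 24 arrays and were tested, and 9511 genes are represented among them. Q50 cells carried 7 CAG repeats on the shorter allele of Hdh and 45, 45 and 43 repeats on the longer allele in replicates 1, 2 and 3. Control cells carried 7 repeats on each allele. All were undifferentiated cells of the 129/Sv strain, grown under standard conditions. The series also holds 6 knock-out arrays and 3 arrays each of the knock-in lines Q20, Q91 and Q111, with 16, 85 and 111 repeats on the longer allele. Each label names a biological replicate but not whether it came from a separate clone or culture. The limma p-values thus measure a spread between arrays, pooled over all groups of the series, which may be technical. The Q50 arrays share a line name, and the line and its repeat length cannot be told apart. The description field of the labels calls the control arrays cells without Hdh, against their title, group and genotype fields, and those 3 fields were followed.

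Hdh is the older name of Htt, the gene of huntingtin, a large scaffold protein that moves vesicles along microtubules and takes part in transcription and the orientation of the mitotic spindle. A CAG repeat near its start encodes a glutamine tract, and expansion of that tract causes Huntington's disease in humans. Embryonic stem cells are cultured from the early embryo. They can sit in a naive state, kept by LIF signalling and factors such as Klf4 and Tfcp2l1, or move towards a primed state that resembles the epiblast after implantation, when cells flatten, tighten their junctions and build actin cables.

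All 9 arrays carried the RNAs that define embryonic stem cells. Pou5f1, the central pluripotency factor, averaged 14.7 ± 0.38 in Q50 (SD, n = 3) and 14.6 ± 0.11 in control (SD, n = 6) on the log2 scale, and Nanog averaged 13.8 ± 0.05 in Q50 and 14 ± 0.06 in control. Fibroblast markers, which feeder cells would bring, were mostly undetected: 9 of 32 listed genes reached the filter, and 0 of these 9 were called higher or lower in Q50 by limma, with 3 at an unadjusted p below 0.05. Their median difference from the control mean ran from -0.29 to 0.06 over the Q50 arrays and from -0.29 to 0.08 over the control arrays.

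Q50 replicate 3 stood apart from every other array of the series. The gap in log2 signal from the 3' to the 5' Actb probe sets, which widens as RNA degrades, was 1.54 on it, against 0.75 to 1.03 on all other arrays. On the third principal component it lay at 74.6, with the other arrays between -20.4 and 26.4. It correlated at 0.959 and 0.958 with Q50 replicates 1 and 2, which correlated at 0.979 with each other. Results are therefore given with and without it. Control replicate 4 had a median over tested probe sets of 8.25, against 8.50 to 8.57 on the other controls.

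The Q50 cells held more RNA of some genes of the actin cytoskeleton (9 of 33 listed), of matricellular proteins and YAP targets (5 of 26) and of epithelial junctions (9 of 30) than the control cells, and less of some naive pluripotency genes (4 of 27) and amino acid stress genes (11 of 39). Without Q50 replicate 2 these counts were 3, 3, 2, 2 and 3. In that fit 2.51% of all 9511 genes were higher and 0.978% lower, against 5.08% and 2.43% with all arrays. Counts without replicate 2 given further on stand beside these shares. The lists and their members were chosen with earlier results of these data known. List counts here and below thus describe the lists and do not test them. Of the 17980 probe sets, 1024 were higher in Q50, which is 5.7%, and 414 were lower, which is 2.3% (limma, Benjamini-Hochberg adjusted p below 0.05). Of the called probe sets, 463 changed at least 2-fold, 378 of them higher and 85 lower. Without replicate 3, 726 were higher (4.04%) and 352 lower (1.96%). The calls of both fits shared 707 probe sets, 49.2% of those made with replicate 3 and 65.6% of those made without it, and 0 of the 1438 calls turned its sign when that array left. Without Q50 replicate 2 the count was 739.

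The excess of higher over lower calls depended on the scaling of the arrays. The share called higher was 71.2% in the deposited values, 48.9% after quantile normalization and 48.2% after median centring, and without replicate 3 it was 67.3%, 48.0% and 49.5%. Which probe sets were called depended on it less: 1134 of the 1438 were also called after quantile normalization and 1086 after centring. The 3 Q50 arrays lay wholly above or wholly below the 6 controls on 2109 probe sets, 11.7% of those tested.

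Counted by gene, 483 were higher in Q50 (5.08%) and 231 lower (2.43%), and without replicate 3 these were 343 and 232. Of the 347 genes called with replicate 3 and not without it, 61 had at least as large a change without it and 59 a change smaller by over 1.5 times or of the other sign, so a call lost with that array does not show that the change rested on it. Replicates 2 and 3 lay farther from the controls than replicate 1. Over the 483 higher genes the median difference from the control mean was 0.55, 0.77 and 0.76 in replicates 1, 2 and 3, and over the 231 lower genes it was -0.46, -0.74 and -0.71.

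**Figure D1:**
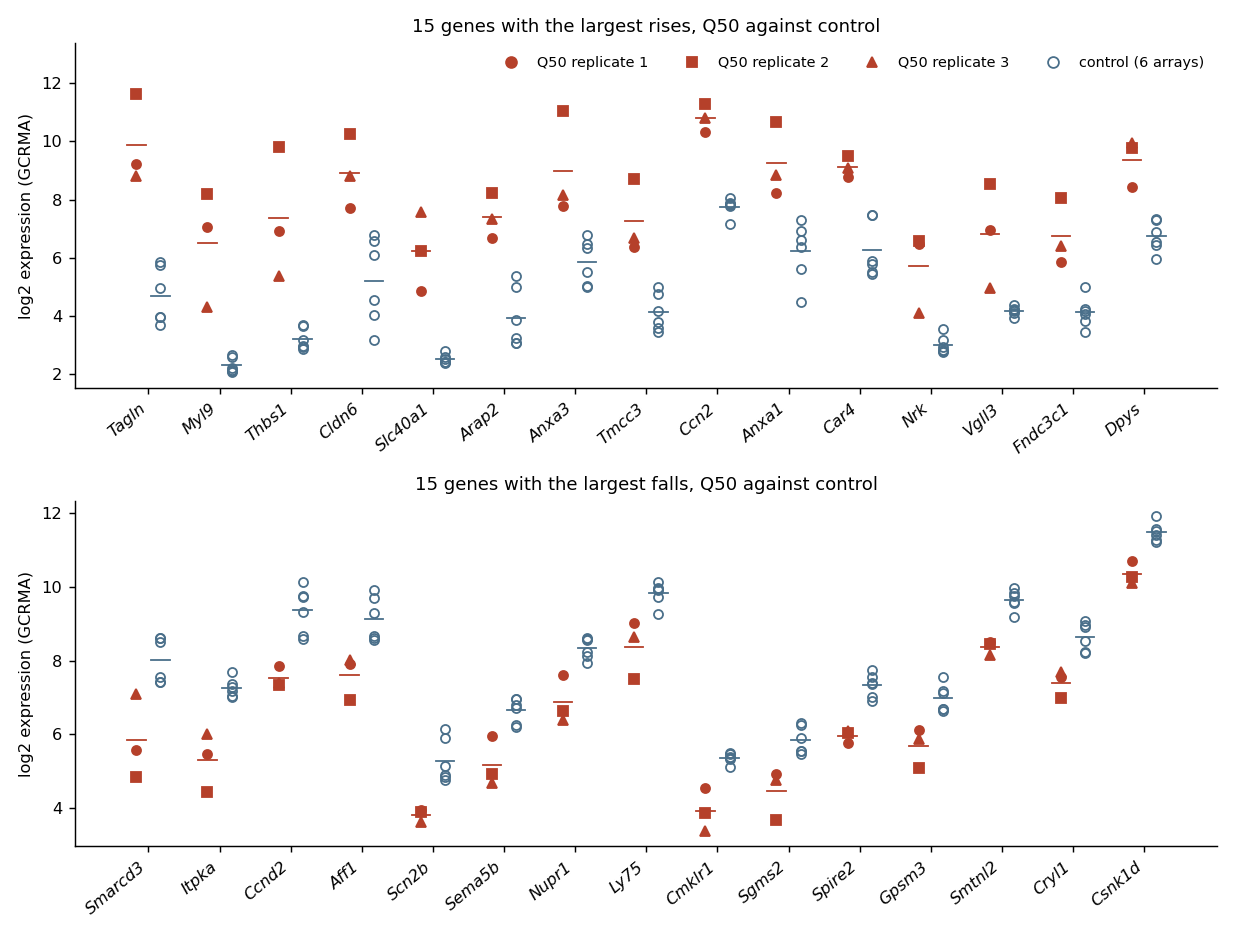
Log2 expression on each array for the 15 genes with the largest rises (upper panel) and the 15 with the largest falls (lower panel) among called genes whose Q50 and control arrays do not overlap. Filled red symbols are the 3 Q50 arrays, open blue circles the 6 control arrays and short lines the group means; Q50 replicate 2 is the highest Q50 array for 13 of the 15 upper genes.

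Among the genes in that plot the largest rise was in Tagln, which codes for transgelin, an actin-binding protein of smooth muscle. Its log2 value was 9.21, 11.63 and 8.82 in Q50 replicates 1 to 3, and in control it ran between 3.69 and 5.85 with a median of 4.46. The groups did not overlap, which the choice of genes for the plot required. The change of 5.19 (limma SE 0.68) had an adjusted p of 0.000285. Without replicate 3 it was 5.73 (adjusted p = 0.000379). Myl9, a regulatory light chain of non-muscle and smooth muscle myosin, had 7.04, 8.20 and 4.31 in Q50, against 2.07 to 2.65 in control (median 2.16). Replicate 3 was the lowest Q50 array here, still above each control, and the change was 4.23 with it (adjusted p = 0.000149) and 5.33 without it (adjusted p = 6.93e-09).

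Thbs1, the matrix glycoprotein thrombospondin 1, stood at 6.93, 9.82 and 5.37 in Q50, against 2.84 to 3.67 in control (median 3.07). Its change was 4.17 with replicate 3 and 5.17 without it (adjusted p = 0.00236 and 0.000926). Ccn2, a secreted matricellular protein also called connective tissue growth factor, was tight in each group: 10.34, 11.30 and 10.81 in Q50, against 7.15 to 8.05 in control (median 7.84). That is an 8.36-fold rise, 3.06 on the log2 scale (SE 0.35, adjusted p = 0.000136), and it was 3.07 without replicate 3.

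Slc40a1, the ferroportin iron exporter, was near the bottom of the scale in control at 2.37 to 2.77, and at 4.87, 6.25 and 7.56 in Q50. Its change of 3.71 had the smallest adjusted p of the rises named by size, at 0.000108, and was 3.05 without replicate 3. Car4, a membrane-bound carbonic anhydrase, had 8.77, 9.5 and 9.09 in Q50, against 5.44 to 7.48 in control (median 5.84), a rise by 2.86 (adjusted p = 0.000956). Dpys, dihydropyrimidinase of pyrimidine breakdown, had 8.43, 9.77 and 9.93 in Q50, against 5.94 to 7.34 in control (median 6.71), a rise by 2.64 (adjusted p = 0.000478). For all 3 genes the 3 Q50 arrays lay above the 6 controls, which the rule that picked them required.

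The other genes of this group were Cldn6 (a claudin of tight junctions), Arap2 (an Arf GTPase-activating protein), Anxa3 and Anxa1 (annexins that bind membrane phospholipids), Tmcc3, Nrk (an X-linked kinase), Vgll3 (a cofactor of TEAD factors) and Fndc3c1. Their rises ran from 2.64 in Vgll3 and Fndc3c1 to 3.73 in Cldn6. Of the tested probe sets, 1 of 2 was called higher for each of Thbs1 and Nrk, and 1 of 3 for Vgll3. Slc40a1, Tmcc3 and Car4 had all of theirs called higher. All 15 genes were called without replicate 3. Without replicate 2, 11 of the 15 were called, and Cldn6, Anxa3, Anxa1 and Vgll3 were not. In 9 of the 15, among them Tagln, Myl9, Thbs1 and Slc40a1, the control mean lay under the filter level of 5, where signal is not told from background, so the size of the change is not settled; such genes could pass the filter only through arrays on which they were high.

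The largest falls were smaller than the largest rises. Smarcd3, a subunit of BAF chromatin remodelling complexes, had 5.58, 4.84 and 7.11 in Q50, against 7.41 to 8.62 in control (median 8.04). Its controls formed 2 clusters, with replicates 1 to 3 at 8.52 to 8.62 and replicates 4 to 6 at 7.41 to 7.55. Q50 replicate 3 was the nearest to the controls, and the fall by 2.18 (SE 0.43, adjusted p = 0.00448) became a fall by 2.81 without it (adjusted p = 0.00109). Itpka, a neuronal inositol trisphosphate kinase, had 5.48, 4.45 and 6.01 in Q50, against 7.02 to 7.70 in control, and fell by 1.96 (adjusted p = 0.00227). Ccnd2, a D-type cyclin, had 7.85, 7.35 and 7.41 in Q50, against 8.6 to 10.13 in control (median 9.52), and fell by 1.83 (adjusted p = 0.00559).

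Spire2, an actin nucleator, showed the smallest adjusted p among the named falls. It had 5.77, 6.04 and 6.09 in Q50, against 6.92 to 7.76 in control, a 2.58-fold fall (log2 change -1.37, SE 0.18, adjusted p = 0.000348). Csnk1d, casein kinase 1 delta, had 10.71, 10.28 and 10.11 in Q50, against 11.24 to 11.92 in control, a 2.19-fold fall (log2 change -1.13, adjusted p = 0.000461). That was on its brightest probe set, the only 1 of 5 tested that was called. The other falls of this group were Aff1, Scn2b, Sema5b, Nupr1, Ly75, Cmklr1, Sgms2, Gpsm3, Smtnl2 and Cryl1, with changes between -1.50 in Aff1 and -1.25 in Cryl1. Of the 15, 13 were called without replicate 3. Aff1, a subunit of the super elongation complex, and Cmklr1, the chemerin receptor, were not, with adjusted p of 0.0589 and 0.0644. With control replicates 4 to 6 as the only controls, 9 of the 15 were called. Smarcd3, Ccnd2, Aff1, Cmklr1, Sgms2 and Gpsm3 were not. With control replicates 1 to 3 as the only controls, 13 were called. Q50 means of 3 of the 15 lay below 5. Where a gene had several tested probe sets, 1 of 2 was called lower for Smtnl2, 2 of 3 for Cryl1 and 5 of 7 for Ccnd2. Aff1 and Nupr1 had all of theirs called lower.

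Htt itself had 4 probe sets. On the brightest it stood at 7.44, 7.42 and 7.34 in Q50, against 7.45 to 8.25 in control (median 8.09). Control replicate 4, at 7.45, lay next to the Q50 arrays and the other 5 controls at 8.01 or above. The change of -0.61 (SE 0.19) did not pass in limma (adjusted p = 0.0544); its exact permutation p, two-sided, was 0.0119, the smallest that 3 arrays against 6 allow, or 0.0357 adjusted over the 3 Htt probe sets tested. On the second probe set Q50 had 5.90, 6.14 and 6.51, against 6.23 to 6.65 in control, a change of -0.21 (adjusted p = 0.467). On the third Q50 had 5.42, 5.41 and 5.41, against 5.50 to 6.20 in control, and the fall by 0.42 passed with replicate 3 (adjusted p = 0.0486) and missed the threshold without it (adjusted p = 0.108). The fourth was below the filter. Of 8 measured genes listed as Htt and its neighbours on chromosome 5, 1 passed: Lrpap1, a chaperone of LDL receptor family proteins, had 11.03, 11.46 and 11.52 in Q50, against 10.12 to 10.64 in control, and rose by 0.88 (adjusted p = 0.000677).

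Genes of the contractile actin cytoskeleton include many targets of serum response factor (SRF), which reads cellular actin through its MRTF cofactors and binds a DNA element called the CArG box. Of 36 listed genes 33 were measured, 9 were higher in Q50 and 1 lower, against 5.08% higher and 2.43% lower among all 9511 genes. The median change over the 33 was 0.73, beside 0.03 over all genes. Tagln, Myl9 and Cnn1 had control means under the filter level; over the 28 members with both group means at 5 or above, a count chosen after seeing the data, 6 were higher and 1 lower, with a median of 0.58, beside 4.91% higher and 2.37% lower among the 8898 such genes. The 9 were Tagln, Myl9, Fhl1, Myl6, Tpm1, Flna, Cald1, Acta2 and Cnn1. Without replicate 3 the count was also 9, and without replicate 2 it was 3.

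Tpm1, the actin-coiling tropomyosin 1, had 10.78, 12.29 and 10.21 in Q50, against 9.27 to 9.64 in control, and rose by 1.62 (adjusted p = 0.0235). Acta2, smooth muscle actin, had 7.65, 10.30 and 7.05 in Q50, against 6.30 to 7.15 in control, and rose by 1.82 (adjusted p = 0.0382). Its replicate 3 lay inside the control range. Cnn1, calponin 1, was seen mainly in replicate 2, with 3.72, 6.89 and 3.37 in Q50, against 2.39 to 2.95 in control, and rose by 2.01 (adjusted p = 0.0383). Fhl1, a LIM-domain protein coded on the X chromosome, had 8.91, 10.10 and 9.34 in Q50, against 7.77 to 8.74 in control, and rose by 1.29 (adjusted p = 0.0130). The 1 lower gene was Mrtfa, the SRF cofactor, with 8.49, 8.33 and 7.98 in Q50, against 8.69 to 8.98 in control (log2 change -0.57, adjusted p = 0.0360, and -0.43 with adjusted p = 0.175 without replicate 3).

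RefSeq promoters (GRCm38.p6, 250 bases before to 50 after each start) were searched on both strands for the CArG box, which 1.63% of all 32851 promoters held. Counted by gene, as in the list, 1.81% of 27025 genes held it in any of their promoters. Of the 9 higher genes 8 had a promoter in the table and 3 held the box, namely Myl9, Fhl1 and Myl6. Among the listed genes not called higher, 6 of 21 with a promoter in the table held it. The windows are shown, with the box in capitals, because they carry the element by which the list is known; each reads 5' to 3' on the gene's strand and ends before its start site.
Myl9, chr2:156775273-156775342, plus strand: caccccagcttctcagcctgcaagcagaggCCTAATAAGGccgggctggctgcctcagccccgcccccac
Fhl1, chrX:56779551-56779620, plus strand: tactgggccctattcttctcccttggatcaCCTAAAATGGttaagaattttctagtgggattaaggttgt
Myl6, chr10:128493020-128493089, minus strand: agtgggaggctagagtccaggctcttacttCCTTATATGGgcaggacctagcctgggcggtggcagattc
A match is a description of these letters and says nothing of whether SRF binds there.

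Matricellular proteins and other targets of YAP and TEAD, the growth control factors that respond to cell shape, were listed next. Of 26 measured genes 5 were higher and 0 lower, beside 5.08% and 2.43% of all genes, with a median change of 0.31. With both means at 5 or above 4 of 19 were higher, Thbs1 being the called gene left out. The 5 higher genes were Thbs1, Ccn2, Ccn1, Amotl2 and Gadd45b. Ccn1, the matricellular protein once called Cyr61, had 10.01, 10.88 and 9.91 in Q50, against 6.96 to 8.10 in control (median 7.82), a 5.82-fold rise (log2 change 2.54, adjusted p = 0.00500). Amotl2, an angiomotin that binds YAP, rose by 1.11 (adjusted p = 0.0231) and the stress gene Gadd45b by 1.08 (adjusted p = 0.0364). Without replicate 3 their changes were 1.12 and 1.08, and neither passed (adjusted p = 0.0561 and 0.0839). All 3 Q50 arrays lay above all controls for each of the 5. Without replicate 3, and likewise without replicate 2, 3 genes of the list were called.

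Keratins of simple epithelia and tight junction genes gave 9 of 30 measured genes higher and 0 lower, beside 5.08% and 2.43% of all genes. The median change over the list was 0.73. Epcam, an epithelial adhesion molecule, had 12.63, 13.31 and 13.63 in Q50, against 11.92 to 12.47 in control, and rose by 0.97 (adjusted p = 0.00296). F11r, the junctional adhesion molecule A, had 10.19, 9.94 and 9.67 in Q50, against 8.81 to 9.54 in control, and rose by 0.76 (adjusted p = 0.0125). Esrp1, an RNA-binding protein that sets epithelial splicing, had 9.78, 10.39 and 9.53 in Q50, against 7.53 to 9.08 in control, and rose by 1.64 (adjusted p = 0.0139).

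The keratins Krt18 and Krt8, whose proteins pair into filaments, were both higher. Krt18 had 10.46, 12.33 and 9.45 in Q50, against 7.34 to 8.62 in control (median 8.42), and Krt8 had 10.10, 12.43 and 9.16 in Q50, against 6.69 to 8.66 in control (median 8.18). Their rises were 2.48 and 2.62 (adjusted p = 0.0141 and 0.0421). Grhl2, a transcription factor of epithelial genes, rose by 0.90 (adjusted p = 0.0348), and the others were Cldn6, Anxa1 and Anxa3. The list also held 9 higher genes without replicate 3, where Cdh1, E-cadherin, passed with a change of 0.79 (adjusted p = 0.0273) and Grhl2 did not (adjusted p = 0.139). Without replicate 2 the count was 2. Of 10 measured mesenchymal genes, listed as a contrast, limma called 0 in either direction, with 3 at an unadjusted p below 0.05. Without replicate 3, 1 was higher, Cdh2, the N-cadherin gene (change 1.62, adjusted p = 0.0465), and 1 was lower after quantile normalization and 2 after median centring.

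**Figure D2:**
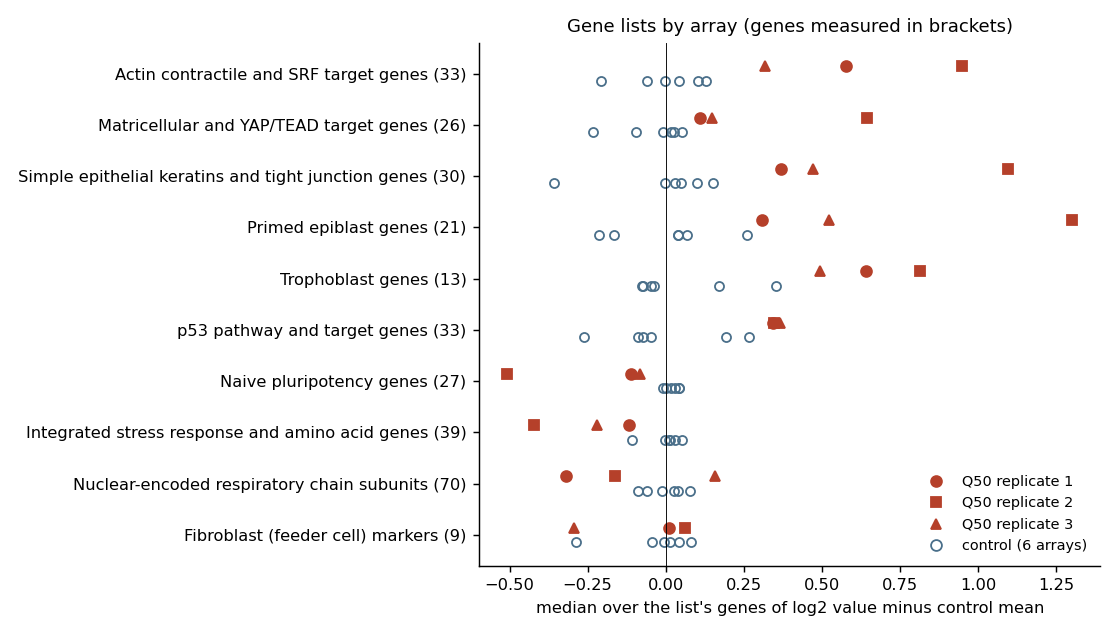
Median over each list's measured genes of the log2 value minus the control mean, for each array. Filled red symbols are the 3 Q50 arrays and open blue circles the 6 control arrays, with the number of genes measured in brackets. Q50 replicate 2 lies farthest from 0 in 7 of the 10 lists, and the 3 Q50 arrays straddle 0 for the respiratory chain and the fibroblast markers.

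Naive pluripotency genes gave 4 of 27 lower and 2 higher, beside 2.43% and 5.08% of all genes, with a median change of -0.20. Klf4, a factor that holds the naive state downstream of LIF, had 11.63, 11.23 and 12.13 in Q50, against 12.59 to 12.92 in control, and fell by 1.09 (SE 0.18, adjusted p = 0.00101). Socs3, a feedback inhibitor of LIF signalling, had 12.21, 11.88 and 12.04 in Q50, against 12.67 to 12.93 in control, and fell by 0.81 (adjusted p = 0.000478). Neither gene's groups overlapped, and the changes without replicate 3 were -1.32 and -0.81.

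Tfcp2l1, another naive factor, had 11.22, 10.43 and 11.62 in Q50, against 11.80 to 12.38 in control, and fell by 1.05 (adjusted p = 0.0460). Klf2 had 12.56, 12.16 and 11.49 in Q50, against 12.38 to 12.99 in control, and its fall by 0.75 (adjusted p = 0.0272) was not called without replicate 3 (adjusted p = 0.185). The 2 higher members were Dppa2 and Dppa4, partner proteins that prime developmental promoters, each with a rise by 0.59 (adjusted p = 0.0454 and 0.0437) that did not pass without replicate 3. After quantile normalization or median centring 5 members were lower and 0 higher, and without replicate 2 the counts were 2 and 0. Without replicate 3, 5 members were lower and 0 higher, among them Tbx3, a T-box factor of the naive state, with 9.52, 8.17 and 10.01 in Q50, against 10.16 to 11.15 in control.

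Core pluripotency genes gave 2 of 15 higher and 0 lower, beside 5.08% and 2.43% of all genes. Dnmt3l, the cofactor of the de novo DNA methyltransferases, varied little within each group, with 13.68, 13.62 and 13.65 in Q50, against 12.36 to 12.94 in control (median 12.45), a 2.20-fold rise (log2 change 1.14, SE 0.16, adjusted p = 0.000384). Rif1, a protein of replication timing, had 13.31, 13.08 and 13.08 in Q50, against 12.60 to 12.81 in control, and rose by 0.46 (adjusted p = 0.00805). Both passed without replicate 3.

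Of 21 measured genes of the primed epiblast, 7 were higher and 0 lower, beside 5.08% and 2.43% of all genes, with a median change of 0.69. Beside Cldn6 and Krt18, which the junction list shares, these were Pou3f1, Fgf15, Pim2, Sall2 and Ifitm1. Pou3f1, a POU factor of the primed epiblast and early neural cells, had 8.33, 9.39 and 8.11 in Q50, against 6.58 to 7.67 in control (median 7.09), and rose by 1.48 (SE 0.33, adjusted p = 0.00953). Fgf15, a growth factor, had 4.64, 6.09 and 5.58 in Q50, against 3.95 to 4.69 in control, where replicate 1 lay inside the control range. Without replicate 3, 5 were called, and without replicate 2, 0. The Wnt effector Tcf7l1, a repressor of naive genes that sits on another list, had 10.50, 10.67 and 10.57 in Q50, against 8.19 to 9.42 in control (median 8.80), and rose by 1.73 (SE 0.23, adjusted p = 0.000285).

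Trophoblast genes gave 4 of 13 measured genes higher and 0 lower, with a median change of 1.16, beside 5.08% and 2.43% of all genes. Another 8 on the array were below the filter: Cdx2, Elf5, Tfap2a, Gata3, Gata2, Krt7, Hand1 and Tpbpa. Of the 9 members with both group means at 5 or above, 3 were higher. Rhox6 was the called gene left out there, with a control mean of 4.76. Id2, an inhibitor of helix-loop-helix factors, had 11.51, 12.84 and 11.87 in Q50, against 9.10 to 10.52 in control, and rose by 2.12 (SE 0.45, adjusted p = 0.00725). Rhox6, an X-linked homeobox gene of the placenta, had 6.81, 5.65 and 6.89 in Q50, against 4.45 to 5.35 in control, and rose by 1.69 (adjusted p = 0.0296, and 0.114 without replicate 3). The other 2 were the keratins Krt8 and Krt18, which the junction list shares. Without replicate 2 the count was 1. Of 4 measured neuroectoderm genes and 3 mesoderm genes limma called 0, with 3 and 0 at an unadjusted p below 0.05. Without replicate 3 the neuroectoderm gene Pax6, a paired box factor, was called higher (change 1.43, adjusted p = 0.0379), with both group means under 5 in the fit of all arrays.

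The p53 pathway list gave 7 of 33 higher and 0 lower, beside 5.08% and 2.43% of all genes, with a median change of 0.36. Its per-array medians were close together in Q50, at 0.34, 0.35 and 0.37 in replicates 1 to 3, against -0.26 to 0.27 in control. Plk2, a polo-like kinase, had 8.26, 9.81 and 9.40 in Q50, against 5.80 to 7.42 in control (median 6.39), a 6.12-fold rise (log2 change 2.61, adjusted p = 0.00714). Trp53inp1, a p53 cofactor, had 12.45, 12.90 and 12.97 in Q50, against 11.14 to 12.01 in control, and rose by 1.31 (adjusted p = 0.00177).

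Polk, a translesion DNA polymerase, had 8.50, 8.89 and 9.02 in Q50, against 7.25 to 8.0 in control, and rose by 1.22 (adjusted p = 0.00140). Ccng1, cyclin G1, rose by 0.89 (adjusted p = 0.0103) and Eda2r, an X-linked receptor of the TNF family, by 1.07 (adjusted p = 0.0126). The other 2 were Dcxr, a xylulose reductase, and Apaf1, the scaffold of the apoptosome. Without replicate 3, and likewise without replicate 2, 4 of the list were called. Over all settings run, 2 to 11 were called higher.

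The integrated stress response raises ATF4, which switches on amino acid synthesis, uptake and tRNA charging genes. Of 39 measured genes of this list 11 were lower in Q50 and 2 higher, beside 2.43% and 5.08% of all genes. The median change over the list was -0.27. Atf4 itself had 12.07, 11.77 and 11.69 in Q50, against 12.28 to 12.89 in control, and fell by 0.65 (adjusted p = 0.0432, and 0.141 without replicate 3). Chac1, a glutathione-degrading enzyme, had 7.89, 7.28 and 6.73 in Q50, against 8.06 to 8.32 in control, and fell by 0.90 (adjusted p = 0.00361). Nupr1, a stress-induced nuclear protein, had 7.62, 6.63 and 6.40 in Q50, against 7.94 to 8.62 in control (median 8.40), and fell by 1.46 (adjusted p = 0.00405).

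Several enzymes of amino acid synthesis were also lower. Serine synthesis was represented by Phgdh and Psat1, with changes of -0.47 and -0.31, and Shmt2, the mitochondrial serine hydroxymethyltransferase, by -0.51. Asns, asparagine synthetase, had 12.70, 12.29 and 12.55 in Q50, against 12.91 to 13.21 in control, and fell by 0.52 (adjusted p = 0.0288). Pck2, Aldh18a1, Mars1 and Slc3a2 made up the rest of the lower genes. The 2 higher were Cth, cystathionine gamma-lyase, with 11.32, 11.94 and 12.50 in Q50, against 10.31 to 10.98 in control, and Slc38a2, an amino acid transporter, with 13.44, 13.57 and 13.19 in Q50, against 12.76 to 12.97 in control. Their rises were 1.22 and 0.53 (adjusted p = 0.00618 and 0.00271). Without replicate 3 the counts were 8 lower and 2 higher, and without replicate 2 they were 3 and 2. Over all settings run, 1 to 16 genes of the list were lower and 2 to 3 higher.

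ATF4 and its partners bind the element TGATGNAA, which 3.97% of all RefSeq promoters held on either strand. Counted by gene, as in the list, 4.51% of 27025 genes held it in any of their promoters. Of the 11 lower genes, 4 held it (Asns, Chac1, Nupr1 and Pck2), and of the 23 other listed genes with a promoter in the table, 7 did. The windows around it are shown with the element in capitals, 5' to 3' on the gene's strand; in Chac1, Nupr1 and Pck2 it lies on the opposite strand.
Asns, chr6:7693210-7693262, minus strand: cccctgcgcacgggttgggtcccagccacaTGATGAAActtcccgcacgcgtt
Chac1, chr2:119351019-119351086, plus strand: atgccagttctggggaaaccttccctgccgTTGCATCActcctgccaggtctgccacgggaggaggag
Nupr1, chr7:126625543-126625610, minus strand: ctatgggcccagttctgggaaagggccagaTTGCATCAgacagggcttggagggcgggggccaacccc
Pck2, chr14:55540133-55540200, plus strand: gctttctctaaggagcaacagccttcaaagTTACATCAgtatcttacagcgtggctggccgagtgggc
The element occurred in called and uncalled genes of the list, and binding was not measured.

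Among genes of the unfolded protein response, the other arm of protein stress, 3 of 23 were higher and 0 lower, beside 5.08% and 2.43% of all genes. After median centring 0 were higher, without replicate 2 also 0, and without replicate 3, 2. Hspa5, the chaperone BiP of the endoplasmic reticulum, had 13.94, 13.92 and 13.97 in Q50, against 13.28 to 13.80 in control, and rose by 0.42 (adjusted p = 0.0270, and 0.0718 without replicate 3). Manf, a secreted stress factor, rose by 0.44, and Hsp90b1, the chaperone GRP94, by 0.36 (adjusted p = 0.0270 and 0.0356).

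Subunits of the mitochondrial respiratory chain coded in the nucleus gave 0 of 70 higher and 5 lower, beside 5.08% and 2.43% of all genes. The median change over the list was -0.10. Here replicate 3 pointed the other way. The list's median difference from the control mean was -0.32, -0.16 and 0.16 in Q50 replicates 1 to 3, against -0.09 to 0.08 in control. Without replicate 3 the median was -0.24 and 11 subunits were lower, without replicate 2 the count was 2, and after quantile normalization or median centring it was 9. Uqcrc1, a core subunit of complex III, had 11.85, 11.88 and 11.50 in Q50, against 12.08 to 12.43 in control, and fell by 0.57 (adjusted p = 0.00227). Ndufb8 of complex I had 11.45, 11.41 and 11.80 in Q50, against 11.88 to 12.33 in control, and fell by 0.58 (adjusted p = 0.00668). Sdhc of complex II fell by 0.72, and Cox5b and Cox5a of complex IV by 0.52 and 0.26. Ndufb10, at 12.16, 12.08 and 12.95 in Q50, against 12.45 to 12.60 in control, differed between the fits. It was called without replicate 3 (change -0.41, adjusted p = 0.0166) and not with it (change -0.13, adjusted p = 0.585).

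**Figure D3:**
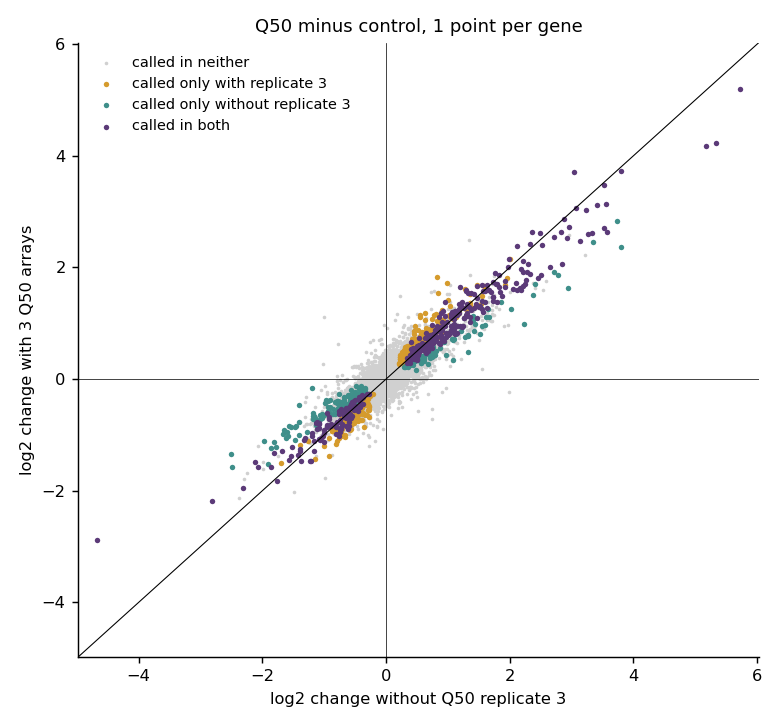
Log2 change of each of 9511 genes in Q50 against control, with all 3 Q50 arrays (vertical axis) and without replicate 3 (horizontal axis); the diagonal marks equal change. Purple points (367 genes) were called in both fits, gold points only with replicate 3 and teal points only without it. Genes that lie far off the diagonal are those in which replicate 3 differed from replicates 1 and 2.

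Replicate 3 differed by at least 1 in log2 from the mean of replicates 1 and 2 upward in 473 genes and downward in 357, and replicates 1 and 2 differed from each other by at least 1 in 533. The genes farthest above in replicate 3 were Srgn (the proteoglycan serglycin), Nkx6-3 (a homeobox factor), Cubn (the endocytic receptor cubilin), Myl4 (an atrial myosin light chain) and Calml4. Srgn had 3.74, 3.75 and 10.09 in Q50, against 2.93 to 7.14 in control, where replicates 5 and 6 were the high ones at 7.14 and 6.92. Cubn showed the same order, with 2.78, 2.77 and 6.99 in Q50, against 2.19 to 5.44 in control. Nkx6-3 was at 1.62, 1.60 and 6.99 in Q50, against 5.81 to 6.94 in control, so that replicate 3 alone lay at the control level.

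Farthest below in replicate 3 were Eif2s3y, Plagl1, Nnat, Fmr1nb and Uty. Eif2s3y, a Y-linked translation factor subunit, had 11.01, 11.47 and 4.55 in Q50, against 8.26 to 10.35 in control. Uty, a Y-linked histone demethylase homologue, had 6.97, 8.34 and 3.76 in Q50, against 3.88 to 5.84 in control. For both genes replicates 1 and 2 lay above all controls and replicate 3 below them. Nnat, an imprinted proteolipid gene, had 5.62, 10.34 and 3.64 in Q50, against 3.57 to 5.90 in control. Plagl1, an imprinted zinc finger gene, had 8.63, 10.52 and 5.21 in Q50, against 8.53 to 9.23 in control. These 10 genes were picked for the distance of 1 array, and no test was made of it.

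Some calls were lost without that array, though of the 10 named here only Bnipl differed in size by over 1.5 times between the fits. Among rises the largest were Phlda1 (2.14 with it and 2.01 without it, adjusted p = 0.0360 and 0.108), Bnipl (1.82 and 0.82), Jun (1.80 and 1.96), Rhox6 (1.69 and 1.47) and Anxa2 (1.68 and 1.92). Bnipl is an example of a call made by 1 array, with 3.26, 4.54 and 6.91 in Q50, against 2.95 to 3.30 in control. Jun, the AP-1 subunit, missed the threshold narrowly without it (adjusted p = 0.0501). Among falls lost were Aff1 (change -1.50 with it and -1.70 without it), Cmklr1 (-1.43 and -1.15), Khnyn (-1.38 and -0.93), Tns1 (-1.19 and -1.01) and Kif26a (-1.18 and -1.39).

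Other genes were called only when replicate 3 was left out. These were led by Nnat, Phldb2, Slc25a24, Uty and Prag1, with rises of 3.80, 3.74, 3.34, 2.94 and 2.77 in that fit, and by Kdelr3, Igsf21, Xaf1, Tbx3 and Etv4, with changes of -2.51, -2.49, -1.97, -1.90 and -1.86. Kdelr3, a receptor that returns proteins to the endoplasmic reticulum, had 6.13, 5.99 and 9.55 in Q50, against 7.82 to 9.16 in control (adjusted p = 7.74e-05 without replicate 3 and 0.0983 with it). Phldb2, a cortical microtubule anchor, had 4.86, 9.37 and 4.37 in Q50, against 3.08 to 3.52 in control, so this call rested mainly on replicate 2.

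Several regulators of chromatin and signalling changed singly. Bmi1, a core protein of Polycomb repressive complex 1, had 7.99, 7.69 and 7.19 in Q50, against 5.81 to 6.37 in control, and rose by 1.38 (SE 0.24, adjusted p = 0.00162). It was the 1 called gene of 25 on its list, where 5.08% of all genes were called higher and 2.43% lower. Rcor1, the CoREST scaffold of the REST repressor, had 8.45, 8.61 and 8.16 in Q50, against 8.94 to 9.29 in control, and fell by 0.70 (adjusted p = 0.00574). Of 16 measured REST complex and target genes 3 were lower, the other 2 being Itpka and Scn2b, and 1 was higher, Hdac1. Smarcc2 of the BAF complex fell by 0.73 (adjusted p = 0.00969) and Ss18 rose by 0.43 (adjusted p = 0.0398), beside Smarcd3 among 24 measured subunits.

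Genes of Nodal signalling, which maintains pluripotency and patterns the epiblast, gave 3 of 18 higher and 0 lower, beside 5.08% and 2.43% of all genes. After quantile normalization or median centring the list gave 3 and 2. Skil, a feedback inhibitor of SMAD proteins, had 11.87, 12.35 and 12.23 in Q50, against 11.11 to 11.62 in control, and rose by 0.83 (adjusted p = 0.00337). Gdf3, a Nodal-related ligand, rose by 0.59 (adjusted p = 0.0151) and Lefty1, a secreted Nodal antagonist, by 1.21 (adjusted p = 0.0209, and 0.0622 without replicate 3). Imprinted genes gave 3 of 30 higher and 0 lower, and without replicates 1, 2 and 3 in turn 5, 2 and 5 were higher. Of all genes 5.08% were higher with all arrays, and 6.46%, 2.51% and 3.61% in those fits. Kcnq1ot1, a paternally expressed noncoding RNA, had 8.66, 8.42 and 8.91 in Q50, against 7.28 to 7.88 in control, and rose by 1.02 (adjusted p = 0.00959). Impact rose by 0.89 and Ube3a by 0.49 (adjusted p = 0.0102 and 0.00515).

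Calls were also counted by chromosome, since cultured stem cells can gain or lose whole chromosomes. On the X, 48 of 320 genes were higher in Q50, or 15%, and 1 was lower, while 4.72% of genes off the X were higher. Without replicate 3 the X count was 40, and without replicate 2 it was 25, so that 12.5% and 7.81% of X genes were called higher, against 3.3% and 2.31% of genes off the X in those fits. Lower X genes numbered 6 without replicate 3. After quantile normalization 12.2% of X genes were higher, against 3.25% off the X. The median X gene lay at 0.08, 0.19 and 0.24 above the control mean in Q50 replicates 1 to 3, against -0.15 to 0.07 in control. The groups did not overlap, with an exact permutation p of 0.0119, the smallest this design allows, or 0.238 adjusted over 20 chromosomes. A chromosome that shifts alone thus cannot pass after that adjustment. Without replicate 3 the unadjusted exact p of the X was 0.0714. The X was not alone in this: on chromosomes 3, 12 and 13 all 3 Q50 medians also lay above the controls. Their unadjusted exact permutation p was 0.0357, 0.0833 and 0.0714 with all arrays.

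Chromosome 1 differed among the Q50 arrays themselves. Its median gene lay at 0.13, -0.41 and -0.32 in replicates 1 to 3, against -0.20 to 0.14 in control. Of its 526 genes 3.99% were called lower with all arrays, against 2.43% of all genes. Without replicate 1 these shares were 13.9% and 3.68%, without replicate 2 they were 0.57% and 0.978%, and without replicate 3 they were 2.09% and 2.44%. Chromosome 8 stood at 0.12, 0.10 and -0.32 in Q50, where replicate 3 was the low one, against -0.30 to 0.10 in control. Of its 541 genes 2.4% were called lower with all arrays and 0.739% without replicate 3, against 2.43% and 2.44% of all genes, and 1.85% and 3.7% were called higher, against 5.08% and 3.61% of all genes. On chromosome 14, 20 of 335 genes were lower and 3 higher, with medians of -0.17, -0.16 and 0.00 in Q50, against -0.24 to 0.13 in control. The part that chromosome number had in these values was not tested. Genes off chromosomes 1, 8 and 14 gave 458 higher (5.66%) and 177 lower (2.19%) of 8093.

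**Figure D4:**
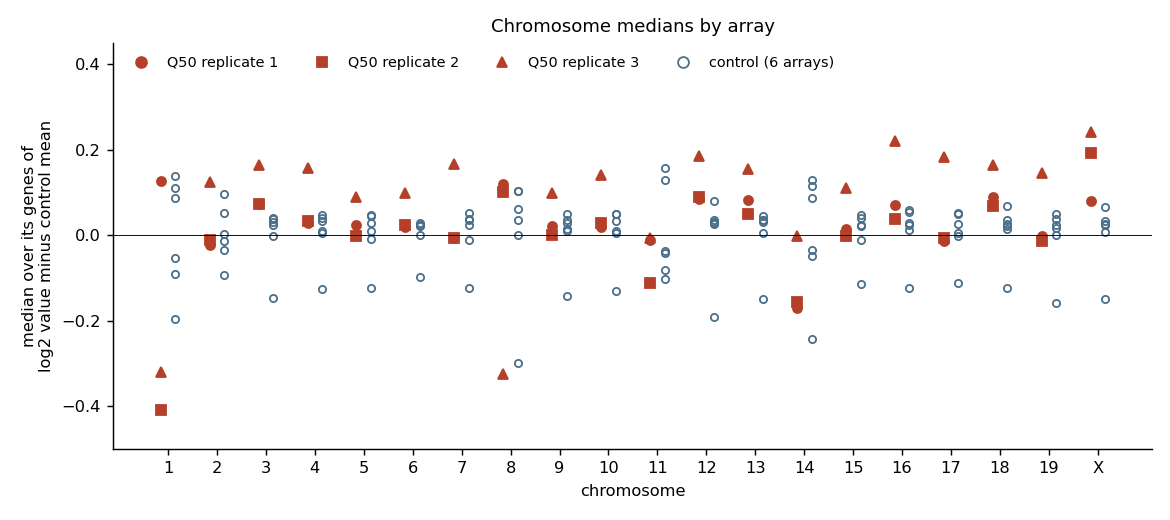
Median over the genes of each chromosome of the log2 value minus the control mean, for each array. Filled red symbols are the 3 Q50 arrays and open blue circles the 6 control arrays. Q50 replicates 2 and 3 lie at -0.41 and -0.32 on chromosome 1. All 3 Q50 arrays lie above the controls on the X and on chromosomes 3, 12 and 13.

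Q50 was then set against the mean of the other 3 knock-in lines, a test that uses no control array in its difference. It called 2441 probe sets, 13.6% of those tested, of which 1048 were above and 1393 below the other lines. This count hung on replicate 3: without it 799 were called, and 663 of these were shared.

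Genes furthest below the other lines were the interferon-induced GTPases Gbp2b, Gbp2 and Gbp3, the collagen gene Col1a1, and Nnat. Gbp3 had 4.26, 4.36 and 3.85 in Q50, against 4.84 to 9.24 in the other lines (median 8.76), a difference of -3.99 (SE 0.45, adjusted p = 3.51e-05, and -3.84 without replicate 3). Its control values were 3.67 to 4.52. Q50 and control values thus both lay under 5, where signal is not told from background, so the size of the difference from the other lines is not settled. Col1a1, the chain of type I collagen, had 3.99, 4.53 and 3.54 in Q50, against 5.57 to 9.0 in the other lines, a difference of -3.94 (adjusted p = 0.000217); its controls were at 3.45 to 3.94, and the same limit holds. Gbp2b and Gbp2 reached 5.33 and 7.68 in Q50 replicate 2 and differed by -4.92 and -4.00. All 4 passed without replicate 3, and Nnat did not (adjusted p = 0.151).

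Above the other lines were Mras, Inhbb, Abca1, D1Pas1 and Aoah. Mras, a Ras-related GTPase, had 9.48, 8.73 and 10.73 in Q50, against 5.41 to 7.92 in the other lines, a difference of 2.67 (SE 0.35, adjusted p = 0.000198, and 2.13 without replicate 3). Control values were 9.30 to 10.46, and Q50 did not differ from them by the test (change -0.33, adjusted p = 0.629). Inhbb, an activin subunit, had 9.96, 7.64 and 10.33 in Q50, against 4.52 to 8.79 in the other lines and 10.21 to 11.59 in control. Its difference of 2.63 from the other lines passed with replicate 3 (adjusted p = 0.00706) and not without it (adjusted p = 0.0743), and the same held for Abca1. Aoah, an acyloxyacyl hydrolase, was at 7.12, 7.22 and 7.21 in Q50, against 4.74 to 5.6 in the other lines and 5.42 to 6.46 in control, above both (differences 2.05 and 1.27, adjusted p = 3.31e-06 and 0.000970).

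**Figure D5:**
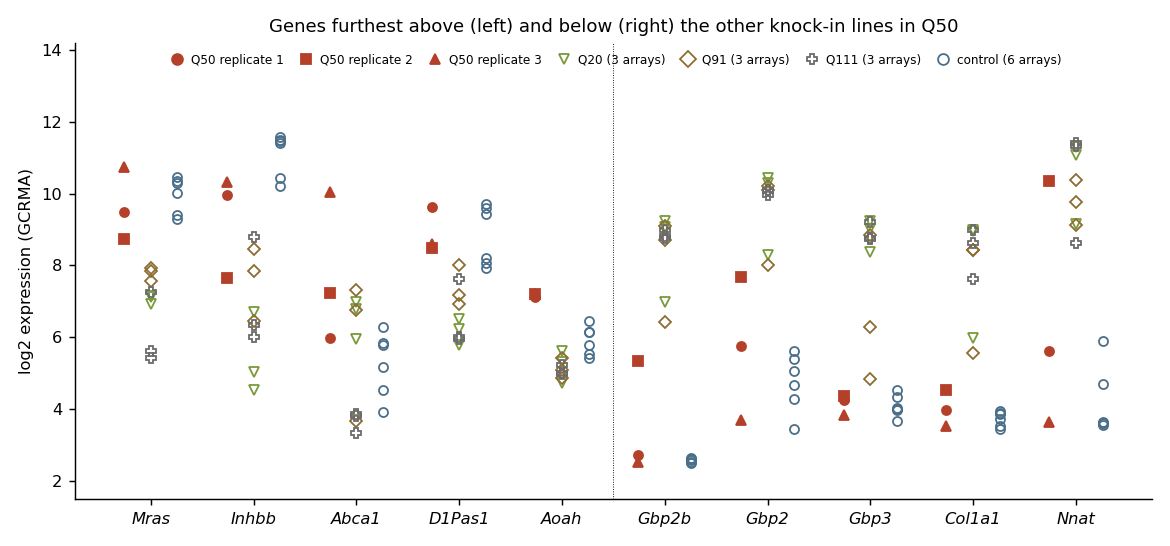
Log2 expression on each array for the 5 genes furthest above and the 5 furthest below the other knock-in lines in Q50. For each gene the filled red symbols at the left are the 3 Q50 arrays, the open symbols in the middle the 9 arrays of Q20, Q91 and Q111, and the open blue circles at the right the 6 controls. For Gbp3 and Col1a1 the Q50 and control arrays all lie under 5, and for Aoah the Q50 arrays sit above both other groups.

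Among the genes that rose most against control, Thbs1, Tmcc3, Ccn2, Vgll3 and Fndc3c1 were lower in Q50 than in the other lines, by differences of -2.76, -1.90, -1.07, -1.82 and -1.74 (limma adjusted p between 0.0125 and 0.0375). The other 10 did not pass that test, nor did any of the 15 lie above the other lines by it. Among the named falls, Smtnl2 and Csnk1d lay further below the other lines, by -0.72 and -0.79 (adjusted p = 0.0371 and 0.00260). On its brightest probe set Csnk1d stood at 10.4 ± 0.31 in Q50 (SD, n = 3), 11.16 as the mean of the other lines and 11.5 ± 0.25 in control (SD, n = 6).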

How the data were processed

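Log2 expression values of 24 Affymetrix MG 430 2.0 arrays, 1 RNA sample each, were used as deposited; the authors made them with GCRMA, per the submitters' processing notes, which corrects background by probe sequence, normalizes arrays together and summarises probes. Neither its version nor the chip definition was stated. No scanner files were used. Array number limits the precision of every value.

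limma 3.58.1 in R 4.3.3 fitted 1 mean for each group over the 24 arrays, which left 18 residual degrees of freedom. The spread of each probe set was pooled over all groups. Q50 was tested against control, again without Q50 replicate 3, and against the mean of Q20, Q91 and Q111. The tests were two-sided, with Benjamini-Hochberg adjustment over 17980 probe sets at 0.05. The 64 control probe sets and those under log2 of 5 on all but 2 arrays were left out. The fits were tested on simulated data.

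GEO's platform annotation gave 34945 probe sets 1 gene, 932 several and 9160 none; the probe set with the highest mean stood for a gene. Chromosomes and promoters came from RefSeq GRCm38.p6. The members and the 42 gene lists were chosen with earlier results of these data known. Named genes were the 15 largest rises and falls whose groups do not overlap (symbols of uncharacterised clones left out), up to 5 members of each described list with the smallest p, the 5 largest of each direction gained or lost without replicate 3, the 5 highest and lowest in replicate 3, the 5 furthest above and below the other lines, and Htt. Other list members named were chosen after their values were seen. Exact permutation tests over arrays were used for Htt and for chromosome medians. Deviations of same-numbered Q50 and control arrays were weakly correlated, which does not settle whether the arrays were paired.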

Additional observations from a re-analysis of the deposited data

Results flagged for a closer look

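Control replicate 4 lay apart from the other 5 controls on several named genes. By Dixon's criterion it was an outlier for Ccn2 at 7.15, Phlda1 at 5.76, Khnyn at 5.80, Kif26a at 4.62 and Htt at 7.45 on the log2 scale. These were 5 of 66 genes examined, and chance flags about 1 in 20. The same array was low on 16 of 20 chromosome medians. On the chromosomes described it stood at -0.30 for chromosome 8 and at -0.15 for the X. Groups of 3 arrays, such as Q50, are too small for this criterion.

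The change of several genes in Q50 differed from that of the other 3 knock-in lines by limma's test of the difference. Q50 lay above the mean of the others for Mras by 2.67, Inhbb by 2.63, Abca1 by 2.36, D1Pas1 by 2.22 and Aoah by 2.05. It lay below them for Gbp2b (a difference of -4.92), Gbp2 (-4.00), Gbp3 (-3.99), Col1a1 (-3.94) and Nnat (-3.71). Without Q50 replicate 3 the differences of Inhbb, Abca1 and Nnat did not pass (adjusted p = 0.0743, 0.376 and 0.151). Of the genes that rose most against control, Thbs1 (-2.76), Tmcc3 (-1.90), Ccn2 (-1.07), Vgll3 (-1.82) and Fndc3c1 (-1.74) lay below the other lines, as did Smtnl2 (-0.72) and Csnk1d (-0.79) among the falls.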

How the results depend on the processing

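The count of 1438 called probe sets (1024 higher, 414 lower) ranged from 739 to 2020 when 1 Q50 or control array was left out (577 to 1181 higher, 162 to 839 lower). It was 601 (474 higher, 127 lower) with only the 3 Q50 and 6 control arrays in the fit. The main fit pools the spread of all groups, so its p-values do not measure the scatter of the Q50 arrays alone. Q50 arrays correlated with each other at 0.958 to 0.979, and control arrays at 0.979 to 0.995. What lowered the count was not tested. With control replicates 1 to 3 alone the count was 726 (468 and 258) and with replicates 4 to 6 alone 531 (447 and 84). Quantile normalization gave 727 higher and 761 lower, median centring 673 and 724, and array weights 1177 and 824; why the split moved was not tested. Deviations of same-numbered Q50 and control arrays correlated at 0.13, -0.08 and 0.05. These 3 values cannot settle whether the numbers pair the arrays. A fit with replicate number as a block called 595 (430 and 165), or 370 without Q50 replicate 3.

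Without replicate 3 the count of 1078 was 586 with only these groups and 428 with control replicates 4 to 6. Against the other lines 2441 became 799 without Q50 replicate 3 and 871 with array weights. Leaving out 1 array at a time gave 799 to 3064 there. The Htt difference of -0.61 ranged from -0.72 to -0.56 with 1 array left out, and its exact p was 0.0536 without control replicate 2, 3 or 5 and 0.1 with control replicates 1 to 3 (-0.70) or 4 to 6 (-0.52), the smallest that 3 arrays against 3 allow. No chromosome median passed in any setting run. With 3 arrays against 3 none could pass, and in the other settings a chromosome that shifted alone could not.

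Of 119 named genes called, 107 kept their call after quantile normalization, 100 after centring, 109 without Q50 replicate 1, 59 without replicate 2 and 72 without replicate 3, and 0 turned sign in the settings run. Values near background limit the sizes of changes in genes with a group mean under 5.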

Other observations

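Smaller gene groups held a few called members, beside 5.08% higher and 2.43% lower among all 9511 genes. Suclg1, a subunit of succinyl-CoA ligase, had 11.46, 11.61 and 12.13 in Q50, against 10.42 to 11.26 in control, and rose by 0.88 (limma adjusted p = 0.00799). Its partner Sucla2 fell by 0.38 (adjusted p = 0.0259) and Ogdh, of the oxoglutarate dehydrogenase complex, by 0.58 (adjusted p = 0.0171). In all 1 of 18 citric acid cycle genes was higher and 3 were lower, or 0 and 1 without replicate 3 and 1 and 0 without replicate 2. Hk2, hexokinase 2, rose by 0.60 (adjusted p = 0.00618), and Vegfa, the endothelial growth factor induced by low oxygen, had 6.51, 5.80 and 6.10 in Q50, against 6.57 to 7.81 in control, and fell by 1.08 (adjusted p = 0.0154). Each was the 1 gene called in its direction of 31 glycolysis and hypoxia genes.

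Beside Slc40a1, the iron genes Fth1 (ferritin heavy chain) and Slc25a37 (mitoferrin) fell by 0.31 and 0.74, and Tfrc (the transferrin receptor) rose by 0.32 (adjusted p = 0.0331, 0.0207 and 0.0455); none of these 3 passed without replicate 3. Of 22 cholesterol genes 2 were higher, Idi1 by 0.46 and Cyp51 by 0.82 (adjusted p = 0.00568 and 0.0117), and 5 without replicate 1 and 1 without replicate 3. Among 18 interferon and MHC genes, Ifitm3 had 12.90, 13.97 and 13.95 in Q50, against 11.50 to 12.58 in control, and rose by 1.53 (adjusted p = 0.0246), Ifitm1 rose by 0.53, and H2-D1, an MHC class I chain, had 8.05, 8.66 and 8.03 in Q50, against 8.72 to 8.99 in control, and fell by 0.65 (adjusted p = 0.0235). Without replicate 3 these changes were 1.36, 0.53 and -0.54, and none of the 3 passed (adjusted p = 0.0921, 0.102 and 0.103); without replicate 2, 0 genes of this list were higher.

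Genes of huntingtin's known partners were counted as well, beside 5.08% higher and 2.43% lower among all 9511 genes. Of 21 measured huntingtin-binding proteins 0 were called in either direction with all arrays (6 at an unadjusted p below 0.05), and 1, Hap1, was lower without replicate 3 (change -1.12, adjusted p = 0.0228). Of 23 dynein, dynactin and kinesin genes 1 was higher, the dynein chain gene Dync1li1 (0.59), and 1 lower, Dynll2 (-0.78). Of 34 proteasome subunits 1 was lower, Psmd3 (-0.51), and of 35 autophagy and lysosome genes 1 was higher, Ctsa (0.51), and 1 lower, Map1lc3a (-0.57). None of these 5 passed without replicate 3, where their changes were 0.56, -0.65, -0.56, 0.34 and -0.52. The other lists, of 2 to 38 measured genes, held the following called members with all arrays, to be read beside the shares of all genes above: FGF and ERK feedback 1 of 21, LIF, BMP and Id genes 3 of 17, Wnt 2 of 16, integrin and matrix adhesion 2 of 24, NRF2 3 of 21, heat shock 1 of 27, cell cycle 2 of 38, endoderm 1 of 9, two-cell-like genes 1 of 3, DNA methylation enzymes 1 of 10, germline genes 0 of 12 (1 at an unadjusted p below 0.05) and Y-linked genes 0 of 2 (1).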
